A study of Camelus dromedarius with 4 samples.

Results

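The genes described here encode the machinery by which brain tissue instructs its own capillaries, namely GPR124, RECK, the ligands WNT7A and WNT7B, the ligand norrin (NDP), the receptors FZD4, LRP5 and LRP6, the tetraspanin TSPAN12 and the effector CTNNB1. They were picked by name from a table of 16053 gene symbols with season means, and all 10 were found there, GPR124 under this older symbol of ADGRA2. The choice was made with the season means known, so the winter and summer values of these 10 genes are given as a description, without a test. RNA came from the supraoptic nucleus of hydrated adult male dromedary camels of the Tergui breed, 2 slaughtered in winter at one place and 2 in summer at another. Season, place and animal therefore cannot be told apart. The tissue is a bulk dissection of magnocellular neurones, glia and capillaries, so fewer cells of a type and less RNA per cell cannot be told apart either.

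In the brain, WNT7A and WNT7B are secreted by neural cells and reach the endothelium of capillaries. There RECK, a membrane-anchored glycoprotein that also restrains metalloproteases, binds the ligand, and GPR124, an adhesion G protein-coupled receptor, brings it to frizzled receptors such as FZD4 and to the co-receptors LRP5 and LRP6. Norrin uses FZD4 and LRP5 as well, with TSPAN12 as a partner. Both routes stabilise beta-catenin, the product of CTNNB1, which drives vessel growth into the brain and keeps the blood-brain barrier.

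The authors deposited, for each symbol, the mean over both libraries of a season of read counts divided by size factors, called normalized reads below. Because 1 read is worth a fixed step in each library, a low mean can be solved for the whole reads of its 2 libraries. Such reads do not name the replicate, so each library is identified by its size factor (winter 1.325 and 0.946, summer 0.922 and 0.877). For 6 of the 10 genes there was a single solution, for GPR124 and LRP5 the winter mean had 2 solutions, and for LRP6 and CTNNB1 there were too many to assign reads. The summer libraries were the least alike, with a Pearson correlation of 0.579 across 7660 symbols on the log2 scale against 0.839 between the winter libraries (genes are not independent replicates). In the recovered reads, pairs across seasons had 0.716 to 0.771. The separate count files, whose gene models carry no names, hold 4379162 to 6902037 reads per library. Over 33213 gene models of these files the summer pair was again the least alike, at 0.778. The winter pair, at 0.864, was less alike than summer replicate 1 with winter replicate 3 (0.916) and summer replicate 2 with winter replicate 2 (0.889). By this measure the libraries of the count files did not group by season.

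The label of supraoptic tissue was met by its hormone genes. The symbol PUTATIVE_AVP had a mean of 2559.6 normalized reads in winter and 11822 in summer, and OXT had 621 and 592, both uncertain because reads the pair may share were not measured. Endothelial genes were present: of 16 markers 15 had season means, none of them at 0 in a season, and 14 reached a mean of 10 normalized reads in winter or summer. By the higher of their season means the first were the receptor tyrosine kinases TEK (597 in winter and 736 in summer) and TIE1 (460.0 and 287) and the clotting factor carrier VWF (444 and 367). TIE1 stood there by its winter mean, since EGFL7, an endothelial secreted factor, had 440.1 and 366.

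The question of the comparison was whether expression in this nucleus differs between winter and summer. The 2 genes more than 2-fold apart were GPR124 and WNT7B, both with the higher mean in winter, and the other 8 differed by less. Among the 13811 symbols whose mean reached 10 in winter or summer, 7.23% were more than 2-fold apart, 2.70% with winter higher and 4.53% with summer higher. Nothing is read from the members' count beside these shares, since the same means were known when the genes were chosen. WNT7B reached a mean of 10 only in winter. The winter mean was higher in 5 genes (46.2% of all these symbols) and the summer mean in 5, and their median log2 ratio of winter to summer was -0.06, against -0.04 over all 13811 symbols.

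**Figure D1:**
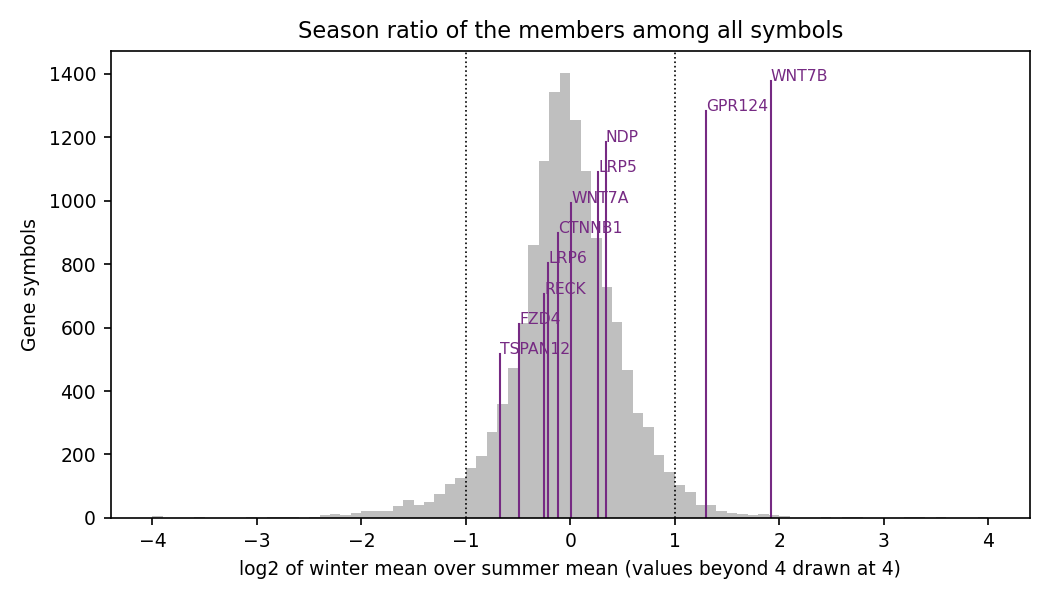
Histogram over gene symbols, on the horizontal axis the log2 of winter over summer means of normalized reads (symbols reaching 10 in either), on the vertical axis the number of symbols, with a labelled line for each of the 10 genes and dotted lines at 2-fold. GPR124 at 1.30 and WNT7B at 1.92 lie beyond the upper dotted line, and the other 8 lie between -0.67 and 0.34.

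GPR124 had a mean of 136 normalized reads in winter and 55.1 in summer, a ratio of 2.46. The summer reads were 46 and 53, or 49.9 and 60.4 normalized reads given first for the larger size factor, as in every pair below. The summer libraries were close to each other. The winter mean can be 211 and 106 reads, which is 159 and 112 normalized reads. In that solution winter exceeded summer in every pairing of libraries, and the log2 ratio ran from 1.02 to 1.53 as single libraries were left out.

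The other winter solution of GPR124 is 26 and 238 reads, or 19.6 and 252 normalized reads. Here a single winter library carried the higher mean, the seasons overlapped, and the log2 ratio was -1.49 without the library of 238 reads. The winter libraries would then be 12.8-fold apart. Of the 3578 symbols with a single solution and 50 or more normalized reads on average in winter, 2 (0.0559%) had winter libraries that far apart, whereas 36.0% were at least as far apart as the 1.42-fold of the first solution. Pooled over the libraries of a season, the ratio of reads per size factor was 2.54 in the first solution (95% exact interval 2.02 to 3.21) and 2.11 in the second (1.67 to 2.69). These intervals, and those given below for other genes, cover counting error only and not the difference between animals.

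RECK, the partner of GPR124 at the membrane, did not share its pattern. Its normalized reads were 106 and 131 in winter and 84.6 and 198 in summer (141 and 124 reads, and 78 and 174), with means of 119 and 141. Both winter libraries lay between the summer ones. The log2 ratio of the means was -0.25 and went from -0.74 without the lower summer library to 0.49 without the higher one, so its sign was set by which summer library was kept. The counting interval of the pooled ratio, 0.833, was 0.699 to 0.994.

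Set against each other within a library, where size factors cancel, reads of GPR124 per read of RECK were 1.5 and 0.855 in winter in the first solution, and 0.590 and 0.305 in summer. Winter was thus the higher in every pairing. With the second solution the winter values were 0.184 and 1.92, on either side of the summer ones.

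The ligands for this receptor pair differed from one another. WNT7A had 37.7 and 24.3 normalized reads in winter and 19.5 and 42.2 in summer, with means of 31.0 and 30.8. The seasons overlapped, and the log2 ratio of 0.01 had a counting interval of 0.731 to 1.52 as a fold. Without the summer library of 18 reads the log2 ratio was -0.44, and without that of 37 reads it was 0.67.

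WNT7B was a low transcript, with 23 and 20 winter reads against 2 and 7 in summer. As normalized reads these were 17.4 and 21.2 against 2.17 and 7.98. Both winter libraries lay above both summer ones, with means of 19.3 and 5.07 and a ratio of 3.79 (counting interval 1.82 to 8.83). One summer library was under the 3 reads taken as the limit of detection. The log2 ratio was 1.92, and it was 1.27 without that library and 3.15 without the other summer library. Reads of WNT7B per read of WNT7A were 0.460 and 0.870 in winter and 0.111 and 0.189 in summer. Reads that these paralogs may share were not measured.

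**Figure D2:**
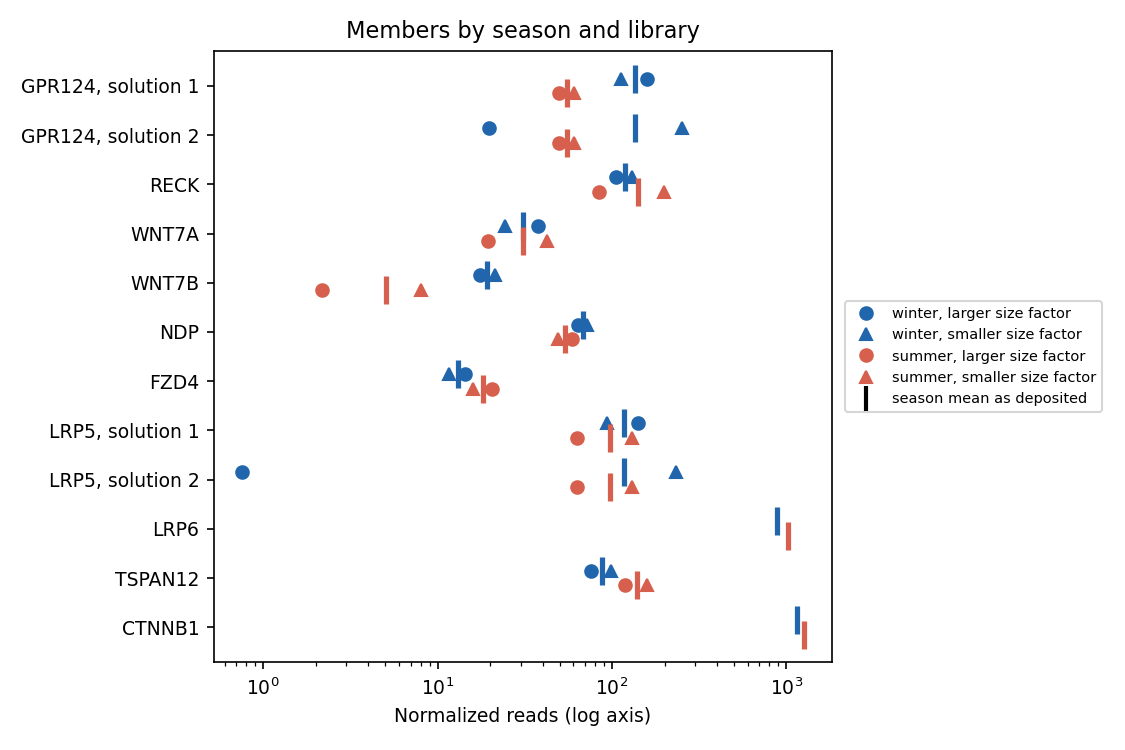
Normalized reads of each gene on a log axis, with circles for the library of the larger size factor and triangles for the smaller, blue for winter and red for summer, and bars for the deposited season means. GPR124 and LRP5 have a row for each solution of the winter mean, and LRP6 and CTNNB1 show means only; WNT7B has 17.4 and 21.2 in winter against 2.17 and 7.98 in summer, while RECK in winter (106 and 131) lies inside its summer range.

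Genes of the norrin route were less than 2-fold apart. NDP, the ligand, had 64.1 and 71.9 normalized reads in winter and 58.6 and 49.0 in summer. Both winter libraries were the higher, by a margin of 64.1 to 58.6 at the closest, and the log2 ratio of the means was 0.34 (0.22 to 0.47 with each library left out). The counting interval of its pooled ratio, 0.963 to 1.63, included 1.

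TSPAN12, the tetraspanin that helps norrin signal through FZD4, had 76.2 and 98.4 normalized reads in winter and 119 and 158 in summer. Both summer libraries lay above both winter ones. The means were 87.3 and 139, a log2 ratio of -0.67 that ran from -0.87 to -0.45 with each library left out. The counting interval of the pooled ratio, 0.617, was 0.509 to 0.748.

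FZD4, the receptor that norrin binds and one that WNT7 ligands can use, was also low. It had 19 and 11 winter reads against 19 and 14, or 14.3 and 11.6 against 20.6 and 16 normalized reads. Both summer libraries were the higher, but the log2 ratio of -0.49 was not resolved at this depth, with a counting interval of 0.424 to 1.22 as a fold.

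Among the 6 genes with a single solution, winter lay wholly above summer in 2 (WNT7B and NDP), summer wholly above winter in 2 (TSPAN12 and FZD4), and the seasons overlapped in 2 (RECK and WNT7A). Over all 7660 symbols with a single solution whose mean reached 10, winter lay above summer in 13.3% and summer above winter in 17.2%. A difference in mean as small as that of NDP can meet this condition. Within winter, 0 of these 6 genes were more than 2-fold apart, against 16.7% of the same symbols.

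The co-receptors were close between seasons. LRP5 had means of 117 in winter and 97.0 in summer, and its summer libraries, at 62.9 and 131 normalized reads, were more than 2-fold apart, so that the log2 ratio of 0.27 became -0.16 without the lower and 0.90 without the higher of them. Its winter mean solves to 186 and 89 reads or to 1 and 221, and in both solutions the seasons overlapped. In the first the normalized reads were 140.4 and 94.1, with 1.49-fold between the libraries. In the second a winter library holds 1 read, and 0 of the 3578 comparable symbols had winter libraries so far apart.

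LRP6 had means of 886 in winter and 1025 in summer, a log2 ratio of -0.21. CTNNB1, which encodes beta-catenin and also serves adherens junctions in every cell type, had means of 1157 and 1258, a log2 ratio of -0.12. Whole reads could not be assigned to libraries for either gene. Of the 170 pairs of solutions for LRP6, 4 placed both summer libraries above both winter ones, and of the 2604 for CTNNB1, 11 did. The other pairs overlapped. The reverse could not occur in either gene, since the summer mean was the higher. These counts do not weigh how plausible each pair is, so they do not say how likely an overlap is.

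In RECK, WNT7A and LRP5 the summer libraries differed from each other by more than the season means did. Of the 8 genes with a single summer solution, RECK, WNT7A, WNT7B and LRP5 were more than 2-fold higher in the summer library of the smaller size factor, and 0 in the other. Over all 12145 symbols with a single summer solution, 19.0% were more than 2-fold higher in the smaller-factor library and 5.15% in the other. The log2 ratio between these libraries was 1.23 for RECK, 1.11 for WNT7A, 1.06 for LRP5 and 1.88 for WNT7B, which rests on 2 and 7 reads. For GPR124, TSPAN12, NDP and FZD4 it lay between -0.37 and 0.41.

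**Figure D3:**
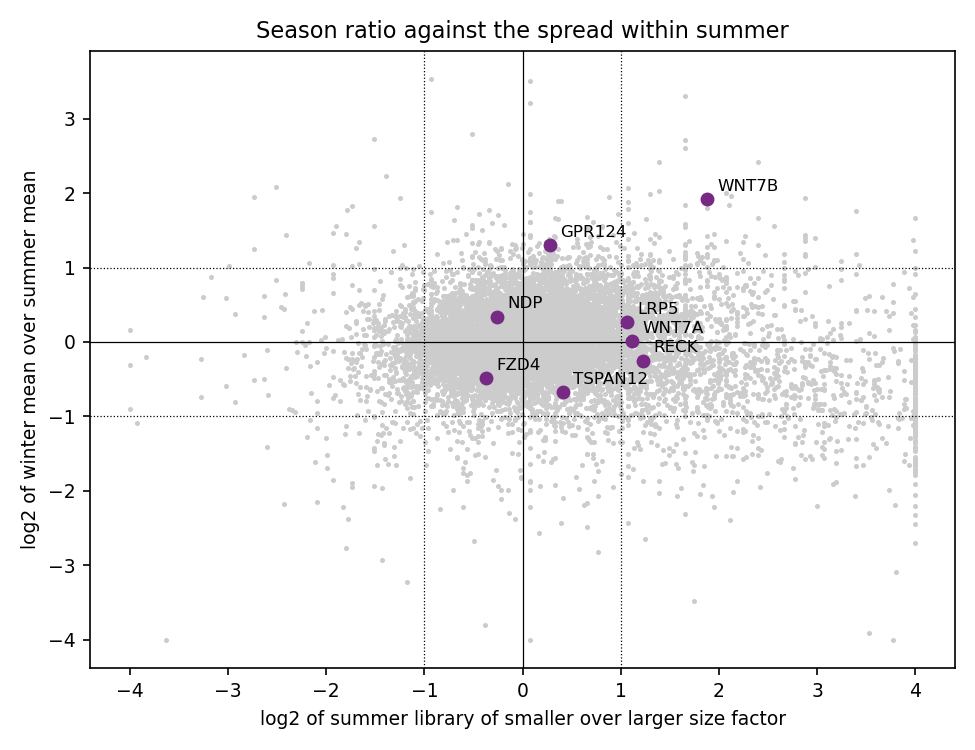
Each grey point is a gene symbol with a single summer solution, with the log2 ratio between the summer libraries (smaller over larger size factor) on the horizontal axis and the log2 of winter over summer means on the vertical axis, values beyond 4 drawn at 4. RECK, WNT7A and LRP5 lie past 1 on the horizontal axis and between -0.25 and 0.27 on the vertical one, whereas GPR124 lies at 0.28 and 1.30.

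Among markers with a single summer solution, those of astrocytes and neurones went with this split inside summer. Of 6 astrocyte markers with a single summer solution, 5 were more than 2-fold higher in the smaller-factor library, with a median log2 ratio of 1.44. Of 8 neuronal markers 4 were, with a median of 1.06. Of 13 endothelial markers 0 were, and of 10 mural markers 0, with medians of -0.16 and -0.51. Of 4 oligodendrocyte markers 0 were and of 3 microglial markers 0, with medians of -0.59 and -0.77. The astrocyte list holds 10 genes, and its most abundant, GFAP and S100B, had no whole reads assigned to every library. The median over all 12145 symbols was 0.07. The part of these cell types in the values of RECK, WNT7A, WNT7B and LRP5 was not tested.

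Between seasons the endothelial markers were split, and most mural markers had the higher mean in summer. Of the 14 endothelial markers that reached 10, 6 had the higher mean in winter and 8 in summer, with a median log2 ratio of -0.06. CDH5 and ENG, a co-receptor for TGF-beta ligands, had both winter libraries above summer (89.0 and 85.7 against 66.1 and 59.3 normalized reads for ENG). The surface proteins CD34 and PECAM1 had both summer libraries above winter, CD34 with 50.6 and 79.3 against 143 and 79.8 and PECAM1 with 49.0 and 70.9 against 91.1 and 80.9. Over the 9 of the whole list with whole reads in every library, whatever their mean, the sums were 368 and 368 normalized reads in winter and 497 and 360.2 in summer. The season means of the whole list summed the other way, to 2716 in winter and 2542 in summer.

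Of the 10 mural markers (pericytes and smooth muscle) 3 had the higher mean in winter and 7 in summer, with a median of -0.19. Of the 6 of these with a single solution, no overlap with summer higher was seen in 3 and with winter higher in 0. Over all 7660 symbols with a single solution whose mean reached 10, these shares were 17.2% and 13.3%. RGS5, a regulator of G protein signalling in pericytes, had 29.4 and 28.6 normalized reads in winter against 64.0 and 38.8, and the smooth muscle actin ACTA2 had 89.8 and 70.9 against 145 and 122. The 8 of the whole list with whole reads, whatever their mean, summed to 357 and 317 in winter and 541 and 397 in summer. Both summer libraries were thus above, while the means of the whole list summed to 1067 and 1058. The most abundant members were PDGFRB (217 and 156), CSPG4 (217 and 191) and MYH11 (187 and 193). NOTCH3, a receptor of mural cells, had means of 109 in winter and 49.7 in summer.

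Counted against endothelial transcripts in the same library, GPR124 had 43.2 and 30.5 reads per 100 reads of these 9 markers in winter in its first solution, and 10 and 16.8 in summer. Against 100 reads of the 8 mural markers it had 44.6 and 35.3, and 9.22 and 15.2. Winter lay above summer by both measures, and the seasons overlapped by both in the second solution. WNT7B, a ligand of neural cells, had 4.71 and 5.75 reads per 100 endothelial reads in winter and 0.437 and 2.22 in summer. TSPAN12, at 20.7 and 26.7 in winter and 24.0 and 44.0 in summer, overlapped on this scale. Against the mural markers it overlapped too, at 21.4 and 31.0 in winter and 22.0 and 39.9 in summer. These ratios rest on the markers with whole reads. Their endothelial sums were 368 and 368 normalized reads in winter and 497 and 360.2 in summer, so only the larger-factor summer library was higher. Mural sums were higher in both summer libraries. The whole endothelial list summed slightly higher in winter, so the endothelial ratios of GPR124, WNT7B and TSPAN12 belong to the markers used.

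Neuronal markers had a median log2 ratio of 0.53, with the winter mean higher in 7 of 9 and the summer mean in 2. Hormone genes did not share this, with OXT level at 621 in winter and 592 in summer. AVP had no season means under that symbol, and PUTATIVE_AVP (2559.6 and 11822) was not counted here. SYN1, a synaptic vesicle protein, had means of 553 in winter and 335 in summer, the tubulin TUBB3 had 492 and 339.5, and the nuclear protein RBFOX3 had 53.6 and 37.0 normalized reads in winter against 15.2 and 33.1. The 4 with whole reads summed to 241 and 116 in winter and 136 and 195 in summer.

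Oligodendrocyte markers had a median of 0.31, with 8 of 10 higher in winter. The myelin genes MBP and MOG had winter and summer means of 7277 and 4571 and of 3929 and 3548, and the list summed to 39090.0 and 34459.9. OLIG2, a transcription factor of the lineage, had 95.8 and 107 normalized reads in winter against 90.0 and 68.4, and the 2 with whole reads summed to 186 and 197 against 220.1 and 141.

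Astrocyte markers had a median of 0.10, with 6 of 10 higher in winter, but their most abundant members were higher in summer. GFAP, the intermediate filament of astrocytes, had means of 14423 in winter and 25074 in summer, S100B had 7489.8 and 11788, and ALDOC had 2203 and 2098. The whole list summed to 25355 in winter and 40123 in summer. AQP4, the water channel of astrocyte end feet, had 6.79 and 3.17 normalized reads in winter against 9.76 and 10.3. The 5 with whole reads, all of lower abundance, summed to 577 and 243 in winter and 184 and 503 in summer.

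Microglial markers had a median of -0.26, with 6 of 9 higher in summer, and the whole list summed to 6955 in winter and 9026 in summer. The complement genes C1QB and C1QC had means of 2278 and 3476 and of 1229.7 and 1778, and the integrin ITGAM had 1194 and 1165. The 3 with whole reads went the other way, with sums of 289 and 298 in winter and 281 and 184 in summer. Among them the receptor CSF1R had 120.0 and 92.0 normalized reads against 77.0 and 35.3, and TMEM119 had 106 and 66 reads against 52 and 54. No marker with season means was at 0 in a season. The part of these cell types in the winter values of WNT7B and GPR124 was not tested.

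Season was tested for other genes of the pathway by quasi-likelihood in edgeR, using recovered reads, with p-values adjusted by the Benjamini-Hochberg method over all 7657 symbols fitted. The thresholds of the study (unadjusted p under 0.05 with over 2-fold) were passed by 1 of 54 other pathway genes. Of all symbols fitted 1.67% did so, 0.849% with winter higher and 0.823% with summer higher, and 1.99% had such a p at any fold. The count is near the share of all symbols, so nothing is read from it. The gene was TLE3, a corepressor that binds the TCF partners of beta-catenin. It had 134 and 60.3 normalized reads in winter against 36.9 and 51.3 in summer, without overlap. Its log2 fold change was 1.16 (standard error 0.49, unadjusted p = 0.0485, adjusted p = 0.982, edgeR's quasi-likelihood test), and it did not pass the thresholds with edgeR's exact test or DESeq2, or without the winter library of 178 reads. By the quasi-likelihood test of edgeR, 0 of the 54 had an adjusted p under 0.05 (0.00% of all symbols) and 1 an unadjusted p under 0.05.

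The 97 other pathway genes that reached a mean of 10 had a median log2 ratio of -0.04. Their means were more than 2-fold apart in 3 with winter higher and in 5 with summer higher. Of all 13811 symbols 2.70% and 4.53% were, so nothing is read from these counts. The 8 other Wnt ligands had a median of -0.06, and 0 of the 6 fitted passed the test. WNT5B, a ligand of the non-canonical branch, had 121 and 128 normalized reads in winter and 92.2 and 83.2 in summer. The ligands more than 2-fold apart were both higher in summer, WNT3A with means of 8.45 and 18.8 and WNT16 with 8.08 and 16.5. In each a single summer library, with 33 and 27 reads, carried the mean, and the other had 0 and 2.

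The 15 other receptors had a median of -0.16, 10 of them with the higher mean in summer, and 0 of the 10 fitted passed. In 2 of these 10 both summer libraries lay above winter (17.2% of all 7660 symbols with a single solution), and in 0 the reverse (13.3%). PTK7, a Wnt co-receptor of planar polarity, had 103 and 89.9 normalized reads in winter against 138 and 152, and ROR2, a receptor for WNT5A, had 18.9 and 18 against 21.7 and 21.7. The relatives of GPR124 in its own receptor subfamily were level, with means of 129.8 in winter and 127 in summer for GPR125 and of 209 and 181 for GPR123.

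Secreted and membrane modulators went both ways, with 0 of 12 fitted genes past the test. SFRP2, a secreted Wnt antagonist, had 161 and 63.5 normalized reads in winter and 54.2 and 58.1 in summer, so that a single winter library carried its mean. PORCN, the acyltransferase that Wnt ligands need for secretion, had 44.5 and 62.4 in winter and 32.5 and 28.5 in summer. KREMEN1, a receptor for DKK inhibitors, had 5.28 and 4.23 in winter and 10.8 and 21.7 in summer, and RSPO3, a Wnt enhancer, 2.26 and 9.52 against 13 and 20.5. These last were small numbers of reads, 3 to 19 in a library.

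Among the 31 intracellular components that reached 10, the median log2 ratio was 0.11, and 1 of 13 fitted (TLE3) passed. TLE2, a corepressor of the same family, had 64.1 and 53.9 normalized reads in winter and 22.8 and 36.5 in summer, with an unadjusted p of 0.0760 and an adjusted p of 0.982 in edgeR's quasi-likelihood test. CSNK1E, a casein kinase of the pathway, had 44.5 and 38.1 in winter against 53.1 and 49.0, and PYGO1, a nuclear cofactor of beta-catenin, 82.2 and 81.4 against 105 and 87.8. LEF1, a nuclear partner of beta-catenin, had means of 143 in winter and 221 in summer.

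Genes that respond to Wnt signalling or mark the barrier had a median of -0.09 over 12, and 0 of 8 fitted passed. FOXF2, a transcription factor of brain pericytes, had 25.7 and 22.2 normalized reads in winter and 10.8 and 7.98 in summer. MFSD2A, the endothelial lipid transporter, had 120.0 and 107 in winter and 260.3 and 147 in summer, and TNFRSF19, a Wnt-responsive receptor, 63.4 and 46.5 against 80.2 and 108. AXIN2, a general target of beta-catenin, had means of 481 and 390.0. Both directions therefore occurred among the targets, with an adjusted p of 0.982 for each of FOXF2, MFSD2A and TNFRSF19 in edgeR's quasi-likelihood test.

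Of the metalloproteases and their inhibitors 0 of 3 fitted passed, with a median of -0.16 over 8. MMP14 had 12.8 and 9.52 normalized reads in winter against 15.2 and 14.8 in summer. The inhibitor TIMP1 had 18.1 and 16.9 against 9.76 and 11.4. Of the junction partners of beta-catenin 0 of 2 fitted passed, with a median of -0.07 over 7. CDH5, the cadherin of endothelial junctions, had 37.7 and 36.0 normalized reads in winter and 15.2 and 23.9 in summer. JUP, a relative of beta-catenin in junctions, had means of 613 and 310.1.

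**Figure D4:**
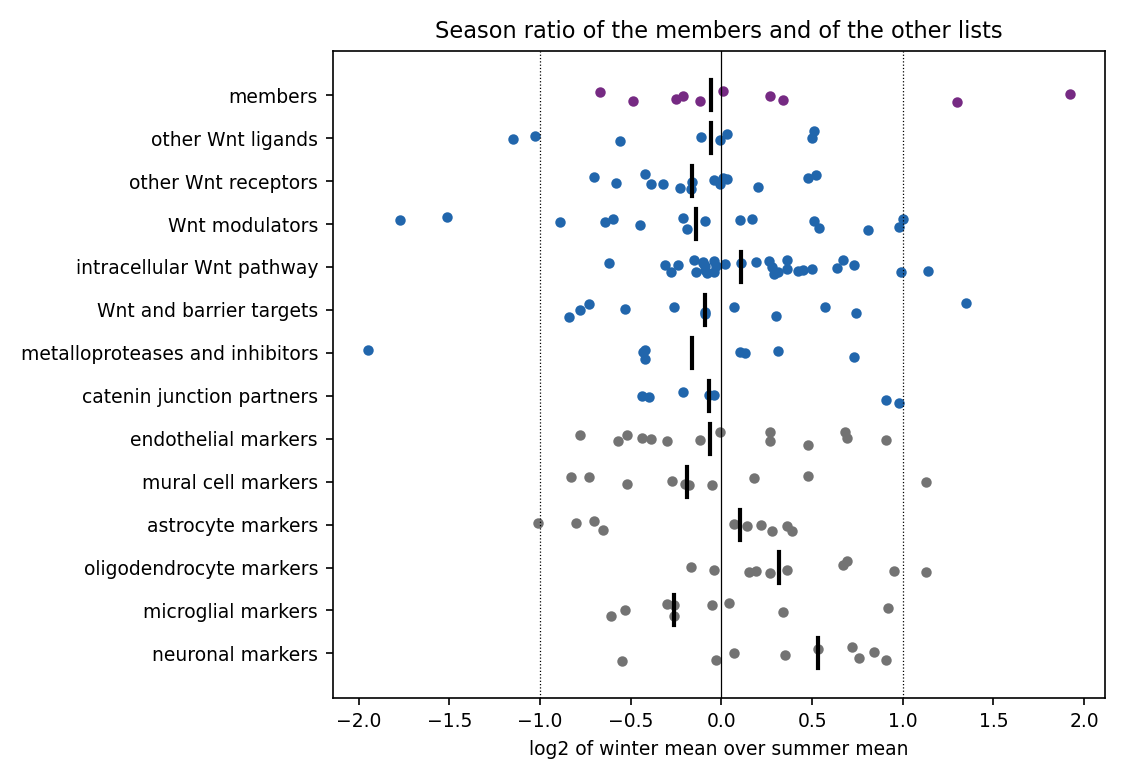
Log2 of winter over summer means for each gene that reached 10, by list, with a black bar at the median and dotted lines at 2-fold. The 10 genes of the pathway (purple) have a median of -0.06, the lists of other pathway genes (blue) have medians from -0.16 to 0.11, and the marker lists (grey) from -0.26 to 0.53.

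Genes with the profile most like GPR124 were sought among 4074 symbols with a single solution that reached 50 normalized reads, by Euclidean distance between centred log2 values over the 4 libraries. Under the first solution these were CORO6 (distance 0.188), CCDC88B (0.194) and FRS3 (0.229), and 51 symbols lay within 0.5. CORO6 had 125 and 93.1 normalized reads in winter and 46.6 and 53.6 in summer. Under the second solution the nearest was UPF3B at 1.26, followed by ZNHIT6 at 1.35 and ELOVL7 at 1.59, and 0 symbols lay within 0.5. With 4 libraries such likeness is a description of these values.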

How the data were processed

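RNA from the supraoptic nucleus was sequenced in 4 libraries, 2 per season, as stranded total RNA with ribosomal RNA removed. Alignment by the authors used TopHat and their own dromedary assembly, counting used HTSeq, and the deposited count files hold raw counts per gene model. The deposited season means are a signal: counts were divided by size factors from DESeq and averaged by the authors over the 2 libraries of a season. The same table holds the authors' fold changes and p-values, which were not used. Versions are not given in the sources used here. Whole reads were solved from the 6 significant digits of each mean, and 9902 of 16053 symbols had a single solution. For 3 of 5497 symbols the recovered reads equalled the counts of a gene model, too few to name the models. The others had no such match, so the count files did not bear out the recovered reads of a library. Values per library rest on solving the means alone, and the reason for the mismatch was not tested. Size factors computed from those files were 1.27 and 0.901 in winter and 0.909 and 0.986 in summer, not equal to the recovered ones. The count files served for depth, where 3 counts correspond to 0.435 to 0.685 CPM, and for correlations between libraries.

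Symbols with single solutions whose mean reached 10 were fitted with edgeR 4.0.16 in R 4.3.3 (size factors from the steps, estimateDisp, then glmQLFit without its legacy option, glmQLFTest). DESeq2 1.42.0 was an alternative. Single solutions are rarer for abundant genes. The 2 animals of a season are assumed to be separate. The p-values set the season difference against the spread between these libraries, estimated in part over all symbols fitted. The members and lists were chosen with earlier results of these data known. Genes named from the lists were those past the thresholds, the 2 largest changes in each direction whose libraries do not overlap, the 3 markers of each list with the highest mean in either season and the 3 nearest to GPR124. PUTATIVE_AVP, GPR123, GPR125, WNT3A, WNT16, LEF1, AXIN2, JUP, EGFL7 and NOTCH3 were named after their values were seen. One gene that this rule selects is not reported here. Read recovery and the edgeR fit were tested on simulated data. Figures were drawn with matplotlib 3.10.9.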

Additional observations from a re-analysis of the deposited data

How the results depend on the processing

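The count of 2 genes more than 2-fold apart stayed at 2 when ratios were centred on the median, when seasons were scaled to the same total and without a filter. It was 3 at 1.5-fold, with TSPAN12 added. It was 1 when winter and summer both had to reach 10, which WNT7B does not, and 1 with a pseudocount of 10, which shrinks the ratio of low means by construction. With 1 library left out, the log2 ratio of GPR124 in its second solution lay between -1.49 and 2.19, the only reversal of a difference over 2-fold.

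The other pathway genes past the thresholds numbered 1, and 1 with TMM or a fold threshold of 1.5, against 0 with the exact test, 0 with DESeq2, 0 without a filter and 0 with the legacy dispersion fit, and the cause was not tested. Leaving out single libraries gave 0 to 9. The 9 were all higher in summer and arose without the summer library of the larger size factor, and without the other summer library there were 7, of which 6 were higher in winter. Symbols past an adjusted p of 0.05 numbered 0 (152 at an unadjusted p under 0.05), 1 with the exact test and 1 with DESeq2, and between 0 and 270 with each library left out. There were 213 without the summer library of the smaller size factor and 270 without the other, where the lone summer library is assumed to vary like the winter pair. No paired analysis was possible, since the winter and summer animals were different ones, slaughtered in separate seasons. The legacy fit, the 1.5-fold threshold of the pathway test and the values of GPR124 and LRP5 with a library left out were added after seeing the data.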

Other observations

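Of the other pathway genes, 16 had means under 10 in both seasons and so entered no comparison. NKD1, a feedback inhibitor that Wnt signalling induces, had 10 and 10 winter reads against 1 and 3 in summer. The receptor FZD7 had 9 and 7 winter reads against 0 and 5, and the secreted inhibitor DKK1 had 10 and 2 against 0 and 3. RSPO4, a Wnt enhancer, had 2 and 0 winter reads against 1 and 6. These genes were chosen after their values were seen, and several of these values are at or under the limit of 3 reads.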
